A study of Mus musculus with 2 samples.

Results

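The maternal-effect and growing oocyte genes described here are 34 genes known from the oocyte, and the products of some of them act in the egg and the early embryo. They were chosen by name, from the proteins of the subcortical complex, the Nlrp genes of the oocyte and other genes listed as maternal-effect genes. A maternal role was not examined for any of them here. On the array, 28 of the 34 genes had a probe set that the platform annotation assigns to a single gene, and 22 were measured, out of 12308 measured genes in all. A gene was taken as measured when a probe set of it had a signal of at least 80.7, the median of all signals, in either pool. Of the other 12 genes, 6 were under this signal minimum, 3 are reached only through probe sets that list several genes, and 3 were not analysed here. H1foo, the linker histone of the oocyte, is listed there under its newer name H1f8 and was matched through its gene ID.

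The study compared newborn mouse ovaries with and without forced hedgehog signalling in their somatic cells. The mutant pool came from Amhr2(cre/+)-SmoM2 mice and the control pool from Amhr2(+/+)-SmoM2 mice, all at 2 days of age. SmoM2, which both genotypes carry, encodes an active form of the hedgehog transducer Smoothened that Cre switches on, and the Amhr2 locus drives Cre in somatic cells of the gonad, not in oocytes. Each pool combined equal amounts of ovary RNA from 8 mice and was hybridised to 1 array, so no difference has a replicate check and no p-value was computed. The mutant genotype also carries Cre itself and a changed Amhr2 copy, which cannot be told apart from SmoM2 activation here.

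Maternal-effect genes are transcribed in the oocyte, and their RNA and protein are kept for fertilisation and the first cleavages, before the embryo's own genome is fully active. The proteins of the subcortical complex gather beneath the membrane of the growing oocyte, and embryos of mouse females without Nlrp5, Padi6, Tle6 or Ooep stop at early cleavage. In the mouse, oocytes are enclosed in primordial follicles in the days around birth, and the transcription factors Figla, Nobox, Sohlh1 and Lhx8 are needed for this step or for the early growth that follows it. Figla and Sohlh1 belong to the helix-loop-helix family, which binds E-boxes, and Nobox is a homeobox factor.

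RefSeq promoter windows on GRCm38.p6, each 300 bases long with 250 before and 50 after the transcription start, were on hand for 28 of the 34 genes. Tcl1, Btg4 and Tle6 are shown because they were 3 of the 4 members lower by 1.5-fold or more, and no window was on hand for the other one, Oas1e. Nlrp4c, Nlrp4a and Nlrp4b are shown because these relatives have similar windows and differed in how they compared between the pools. All windows read 5′ to 3′ on the gene's strand, and capitals mark E-boxes, searched as CANNTG, which reads the same on both strands. They lie at chr12:105222688-105222987 on the minus strand (Tcl1), chr9:51115751-51116050 on the plus strand (Btg4), chr10:81600851-81601150 on the minus strand (Tle6), chr7:6044911-6045210 on the plus strand (Nlrp4c), chr7:26435364-26435663 on the plus strand (Nlrp4a) and chr7:10687543-10687842 on the plus strand (Nlrp4b).
Tcl1: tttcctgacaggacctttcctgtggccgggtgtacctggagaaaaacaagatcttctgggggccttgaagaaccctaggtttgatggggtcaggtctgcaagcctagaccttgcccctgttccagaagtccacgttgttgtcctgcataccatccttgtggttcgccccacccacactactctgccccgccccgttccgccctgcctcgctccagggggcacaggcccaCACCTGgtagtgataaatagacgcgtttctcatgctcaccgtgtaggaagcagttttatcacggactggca
Btg4: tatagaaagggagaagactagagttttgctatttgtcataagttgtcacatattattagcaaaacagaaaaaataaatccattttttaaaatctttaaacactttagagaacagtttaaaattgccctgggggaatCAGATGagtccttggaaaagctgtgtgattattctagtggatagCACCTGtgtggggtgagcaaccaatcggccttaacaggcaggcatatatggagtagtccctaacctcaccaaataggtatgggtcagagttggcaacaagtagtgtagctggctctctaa
Tle6: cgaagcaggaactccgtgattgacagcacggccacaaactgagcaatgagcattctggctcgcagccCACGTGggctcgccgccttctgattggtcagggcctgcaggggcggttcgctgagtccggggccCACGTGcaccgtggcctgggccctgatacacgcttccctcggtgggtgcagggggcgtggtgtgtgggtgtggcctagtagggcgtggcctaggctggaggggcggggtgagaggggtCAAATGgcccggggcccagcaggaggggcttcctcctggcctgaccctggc
Nlrp4c: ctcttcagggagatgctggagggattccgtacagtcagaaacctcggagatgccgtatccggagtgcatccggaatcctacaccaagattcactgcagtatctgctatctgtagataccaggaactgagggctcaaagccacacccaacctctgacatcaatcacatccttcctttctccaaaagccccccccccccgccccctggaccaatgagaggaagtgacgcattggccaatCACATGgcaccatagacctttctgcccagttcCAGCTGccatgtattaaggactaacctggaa
Nlrp4a: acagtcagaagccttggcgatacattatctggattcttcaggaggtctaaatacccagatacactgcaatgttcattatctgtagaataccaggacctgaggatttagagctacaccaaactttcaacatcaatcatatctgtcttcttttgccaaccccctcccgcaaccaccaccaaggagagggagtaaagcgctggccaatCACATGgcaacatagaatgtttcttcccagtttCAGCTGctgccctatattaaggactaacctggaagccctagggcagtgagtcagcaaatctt
Nlrp4b: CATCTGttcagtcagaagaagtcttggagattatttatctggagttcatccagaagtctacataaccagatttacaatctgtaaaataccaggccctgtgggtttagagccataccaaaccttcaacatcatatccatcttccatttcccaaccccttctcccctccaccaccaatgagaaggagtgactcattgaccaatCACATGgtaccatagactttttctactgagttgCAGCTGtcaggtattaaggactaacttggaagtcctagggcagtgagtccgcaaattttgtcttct

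Almost all measured members had a lower signal in the mutant pool, by a small amount. Of 22 members, 21 had a log2 ratio of mutant to control under 0, against 52.5% of all measured genes, and all 22 reached the signal minimum in both pools. The median log2 ratio was -0.41 for the members and -0.02 for all measured genes, and the median member had 75.1% of its control signal in the mutant pool. The ratios ran from -0.81 (Tcl1) to 0.01 (Nlrp4a). The members come from the same cell type, so their ratios are not independent of each other. In whole ovaries, fewer oocytes and less of an RNA per oocyte cannot be told apart.

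Few of these differences were large for a single gene. Of the 22 members, 4 were at least 1.5-fold lower, where 7.90% of all measured genes were, and 0 were at least 1.5-fold higher, where 9.32% were. Oas1e (1.52-fold) and Nlrp4c (1.49-fold) lay just to either side of this size. 0 members were lower by 2-fold or more, against 1.40% of all measured genes, and 0 were higher by as much, against 3.21%. The log2 ratio was computed after adding 22.2, the 25th percentile of all signals, to both values. As a measure of spread, probe sets of the same gene had a pooled SD of 0.38 on the log2 ratio, which holds no error between animals, litters or hybridisations. By this measure 13 members were lower by more than 1 SD, against 16.8% of all measured genes, and 1 member, Tcl1, by more than 2 SD, against 3.83%. The SD was wider among dim probe sets, 0.48 in the dimmest and 0.32 in the brightest of 4 signal classes of measured probe sets. With the SD of each gene's own signal class, 14 members were lower by more than 1 SD, against 17.9% of all measured genes, and 2, Tcl1 and Btg4, by more than 2 SD, against 3.92%.

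**Figure D1:**
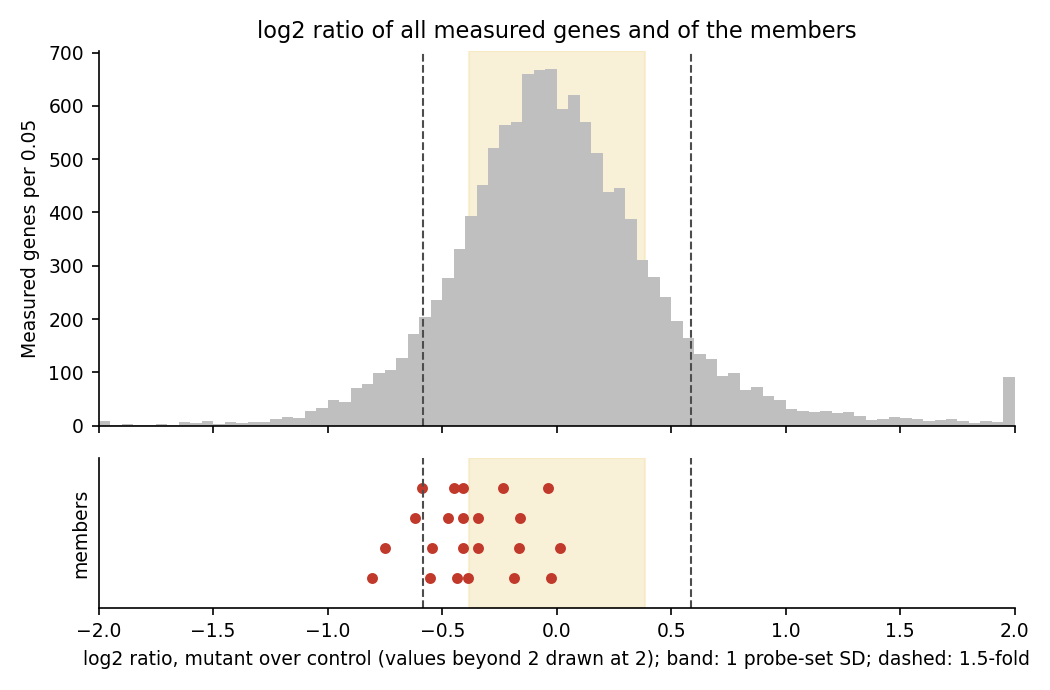
The upper panel counts all 12308 measured genes by log2 ratio of mutant to control, in steps of 0.05 with values beyond 2 drawn at 2, and the lower panel places the 22 members on the same axis (their height only separates the points). The band spans 1 pooled SD between probe sets of a gene (0.38) to each side of 0 and dashed lines mark 1.5-fold; 13 members lie left of the band and 4 of these left of the dashed line.

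In the subcortical complex all 6 measured genes were lower in the mutant pool, with a median log2 ratio of -0.41. Tle6, a Groucho-family member of the complex, had a signal of 2391.8 in mutant ovaries and 3687 in control ovaries, 1.54-fold lower (log2 ratio -0.62). Khdc3, also known as Filia, a KH-domain protein of the complex, read 644.3 in mutant ovaries and 902.7 in control ovaries (log2 ratio -0.47). These were the larger differences within the complex, and that of Tle6 alone passed 1.5-fold.

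The remaining genes of the complex differed less. Nlrp5, also known as Mater, an NLR protein at the core of the complex, read 13626.3 in mutant ovaries and 18111.3 in control ovaries (75.2% of the control signal). Padi6, an egg relative of the peptidylarginine deiminases needed for the cytoplasmic lattices of the oocyte, read 7510.4 in mutant ovaries and 9975.3 in control ovaries (75.3%). The log2 ratios of Nlrp5 and Padi6 were both -0.41. Ooep, also known as Floped, read 8540.9 in mutant ovaries and 10838.6 in control ovaries (78.8%). Nlrp4f, a further NLR component, came closest to equal signals, at 5215.5 in mutant ovaries and 6145.8 in control ovaries (84.9%). All 4 were lower in mutant ovaries, and the log2 ratio of Nlrp4f (-0.24) lay within 1 SD of 0 by either SD. Nlrp2, the other listed gene of the complex, was not analysed here.

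**Figure D2:**
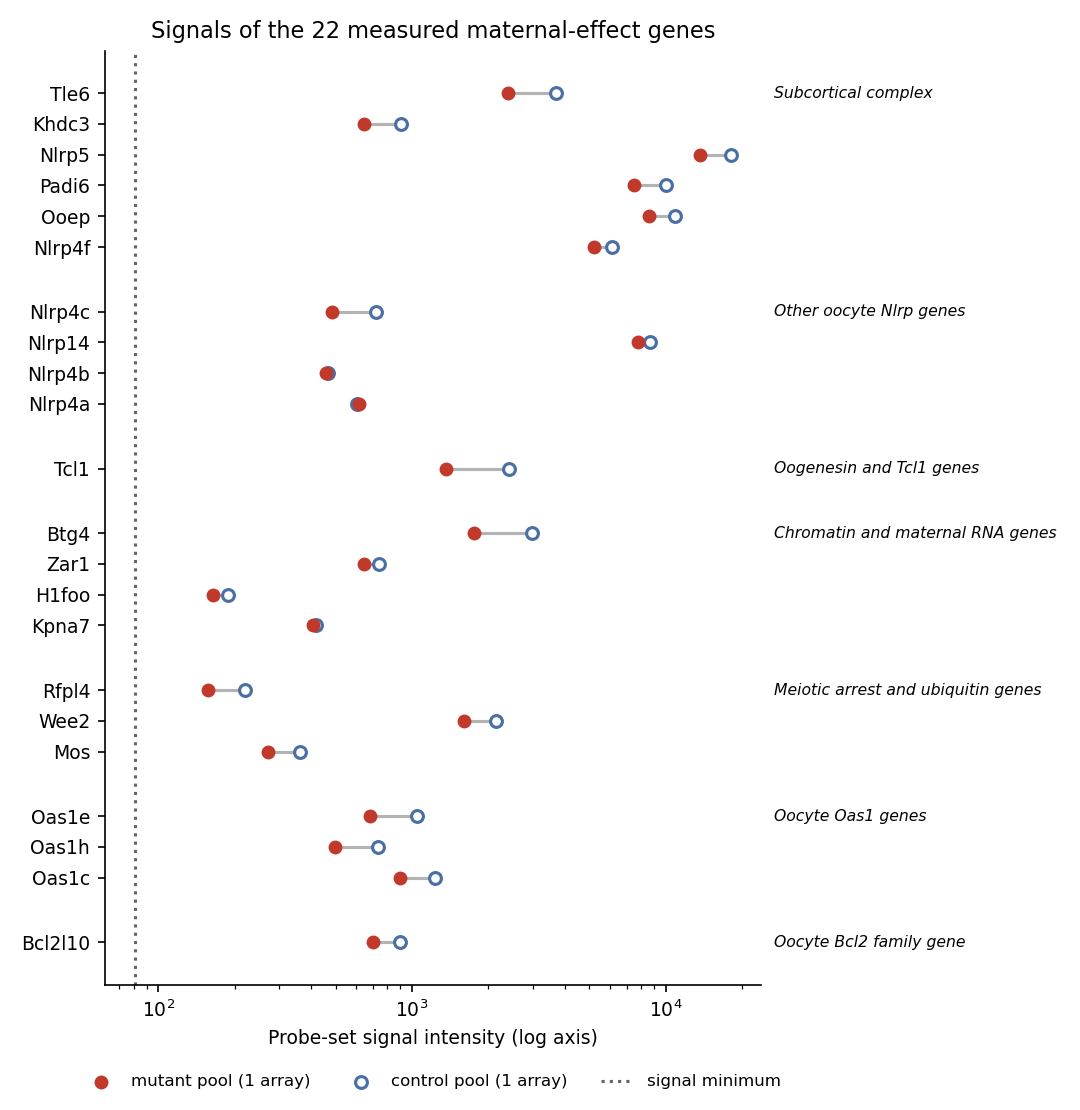
Points give the deposited signal intensity of each measured member on a log axis, in the mutant pool (filled) and the control pool (open), 1 array each, with the probe set of highest mean signal where a gene had several. Genes are grouped by role and the dotted line is the signal minimum of 80.7; the filled point lies left of the open point for all members other than Nlrp4a, where they nearly coincide. Signals of different probe sets are not comparable with each other.

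The other Nlrp genes of the oocyte varied more among themselves, with a median log2 ratio of -0.09 over 4 measured of 8. With the signal minimum lowered to the 25th percentile, which lets in dimmer genes, this median was 0.01. Nlrp4c read 483.7 in mutant ovaries and 720.1 in control ovaries (log2 ratio -0.55). Its relatives Nlrp4b and Nlrp4a were nearly equal between the pools, Nlrp4b at 458.8 in mutant ovaries and 466.7 in control ovaries. Nlrp4a, the only measured member with a higher signal in the mutant, read 615.3 there and 609.3 in the control pool. Nlrp14, a maternal factor that male germ cells also transcribe, read 7761 in mutant ovaries and 8682.2 in control ovaries (89.4%). Each of these genes had a single probe set, so the contrast between Nlrp4c and its relatives rests on 1 probe set apiece.

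In each of the 3 windows a CACATG is followed by a CAGCTG, with 27 bases between them in Nlrp4a and Nlrp4b and 26 in Nlrp4c. Their first bases lie at -45 and -12 from the transcription start in Nlrp4a, at -49 and -16 in Nlrp4b, and at -13 and 20 in Nlrp4c, where the CAGCTG thus follows the annotated start. Nlrp4a and Nlrp4b each have a further start site, not printed here. Counted from it, the Nlrp4b pair lies at -77 and -44, and the Nlrp4a window has a CAGCTG at -80 with no E-box before it. The windows of Nlrp4a and Nlrp4b were identical at 71.2% of aligned positions, those of Nlrp4a and Nlrp4c at 61.1%, and those of Nlrp4b and Nlrp4c at 62.7%. Among the start sites of Nlrp4a and of Nlrp4b, the window most identical to that of Nlrp4c had been chosen. Unrelated windows, not chosen by identity, gave 48.1% (Tcl1 with Nlrp4c), 44.3% (Btg4) and 45.4% (Tle6), so the comparison is not an even one.

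The remaining Nlrp genes stayed under the signal minimum of 80.7 in both pools. Nlrp4e read 62.8 in mutant ovaries and 52.4 in control ovaries, and Nlrp9a read 60.2 in mutant ovaries and 57.4 in control ovaries. Nlrp9b had signals of 8.2 in mutant ovaries and 5.3 in control ovaries, and the probe sets of Nlrp9c lay between 2.2 and 29.5. No order between the pools can be read from such values. In the RefSeq gene order Nlrp4e is the direct neighbour of Nlrp5, and Nlrp4a lies between Nlrp9c and Nlrp9a, so measured and unmeasured genes of the family sit side by side on chromosome 7, which holds 11 of the 34 members.

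Tcl1, which binds and activates the kinase Akt and is stored in the egg, had the lowest ratio of all members. It read 1364.1 in mutant ovaries and 2401.7 in control ovaries, 56.8% of the control signal and 1.76-fold lower (log2 ratio -0.81). Of the oogenesins, oocyte proteins of the leucine-rich Prame family, none gave a measured value. Oog3 and Oog4 were under the minimum, with Oog4 at 39.4 in mutant ovaries and 58.9 in control ovaries, and Oog1 and Oog2 are reached only through probe sets that list several genes.

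The genes of maternal RNA and chromatin handling were split between 1 difference past 1.5-fold and 3 small ones. Btg4, the adaptor that brings maternal RNA to the CCR4-NOT deadenylase at the egg-to-embryo transition, read 1751.7 in mutant ovaries and 2959.8 in control ovaries, 59.2% of the control signal and 1.69-fold lower (log2 ratio -0.75). Zar1, an RNA-binding protein of stored maternal messages, read 646.8 in mutant ovaries and 739.1 in control ovaries (log2 ratio -0.19). H1foo read 165 in mutant ovaries and 187.5 in control ovaries (log2 ratio -0.16). Kpna7, the importin alpha of the egg, was nearly equal, at 406 in mutant ovaries and 416.9 in control ovaries. The ratios of Zar1, H1foo and Kpna7 were all within 1 SD of 0 by either SD. Npm2, the egg nucleoplasmin, was not analysed here.

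The genes of meiotic arrest and of oocyte ubiquitin ligases gave similar ratios, from -0.43 to -0.39. Rfpl4, a RING-finger protein of the oocyte, read 156.9 in mutant ovaries and 219.9 in control ovaries. Mos, the kinase that starts the MAP kinase cascade holding the egg in metaphase, read 270.1 in mutant ovaries and 360.3 in control ovaries. Wee2, the kinase that keeps Cdk1 inactive during prophase arrest, read 1607.7 in mutant ovaries and 2144.2 in control ovaries (log2 ratio -0.41). A second Wee2 probe set, of the kind that can detect several transcripts, read 698.1 in mutant ovaries and 734.2 in control ovaries, where the log2 ratio was -0.07. Wee2 was the only member with more than 1 measured probe set, so the other 21 values could not be compared within a gene. Fbxw15, an F-box protein of the oocyte, was not analysed here.

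The oocyte relatives of the antiviral 2′-5′ oligoadenylate synthetase Oas1 were lower together. Oas1e read 684.4 in mutant ovaries and 1041.3 in control ovaries (1.52-fold lower), Oas1h read 496 in mutant ovaries and 732.8 in control ovaries (log2 ratio -0.54), and Oas1c read 896.1 in mutant ovaries and 1230.5 in control ovaries (log2 ratio -0.45). Their median log2 ratio was -0.54. Oas1e and Oas1c are direct neighbours on chromosome 5 in the RefSeq gene order, with Oas1h close by, and paralogs of this kind can share probe sequence, so their values may not be separate measurements. Oas1d is reached only through a probe set that it shares with Oas1e.

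Genes that interferon induces in somatic cells did not share a single direction with them. Of 17 listed genes 7 were measured, 4 of them with a ratio under 0, 2 at least 1.5-fold lower by log2 ratio and 1 that much higher. Irf7, an interferon transcription factor and 1 of the 2 lower ones, read 47.6 in mutant ovaries, under the minimum, and 100.1 in control ovaries, which bounds it only at 1.24-fold or more. Of the 2, Rsad2 alone has measured signals past 1.5-fold. Rsad2, an antiviral enzyme, read 428.3 in mutant ovaries and 1832.6 in control ovaries. Cmpk2, its neighbour and a mitochondrial nucleotide kinase, read 590.1 in mutant ovaries and 190.5 in control ovaries. Bcl2l10, the Bcl2-family protein enriched in oocytes and the last of the measured members, read 702.2 in mutant ovaries and 897.8 in control ovaries (78.2%).

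E-boxes of some form were found in most promoter windows of the members and in most windows of other genes. A CANNTG was found in 30 of the 32 windows of the 28 member genes, against 72.3% of all windows. The form CAGCTG was found for 16 of 28 member genes, against 18.3% of all genes, and CAGGTG, on either strand, for 13 of 28, against 22.6%. Among the 14 Nlrp and Oog genes, each a family of related genes, 10 had a CAGCTG, and of the other 14 genes 6 did. The CAGCTG count was looked at after the windows had been seen, CAGCTG and CAGGTG are forms of CANNTG, and a match describes the letters of a window, not binding. Of the members lower by 1.5-fold that have a window, Tle6 alone had a CAGCTG, at 1 of its 2 start sites and not in the window printed above. Members nearly equal between the pools (Nlrp4a, Nlrp4b) had it as well.

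Other elements were rarer. TAATTG or TAGTTG, the element that Nobox binds, was found on either strand for 8 of 28 member genes, against 15.8% of all genes. Of the 18 measured members with a window 3 had it, Padi6, Ooep and, at 1 of 2 start sites, Nlrp5. The others, Nlrp9a, Nlrp9b, Oog2, Oog3 and Oog4, gave no measured value. Of the 10 elements of this kind in the member windows, 0 shared bases with an E-box. TATAAA, on either strand, was found for 5 of 28, against 15.7%, and CACGTG for 1 of 28 (Tle6, in the window printed above), against 8.09%. Tcl1 and Btg4, the members with the lowest ratios, had neither CAGCTG nor a Nobox element in their windows, and each had a CAGGTG on 1 of the strands, Tcl1 at -21 and Btg4 at -70.

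**Figure D3:**
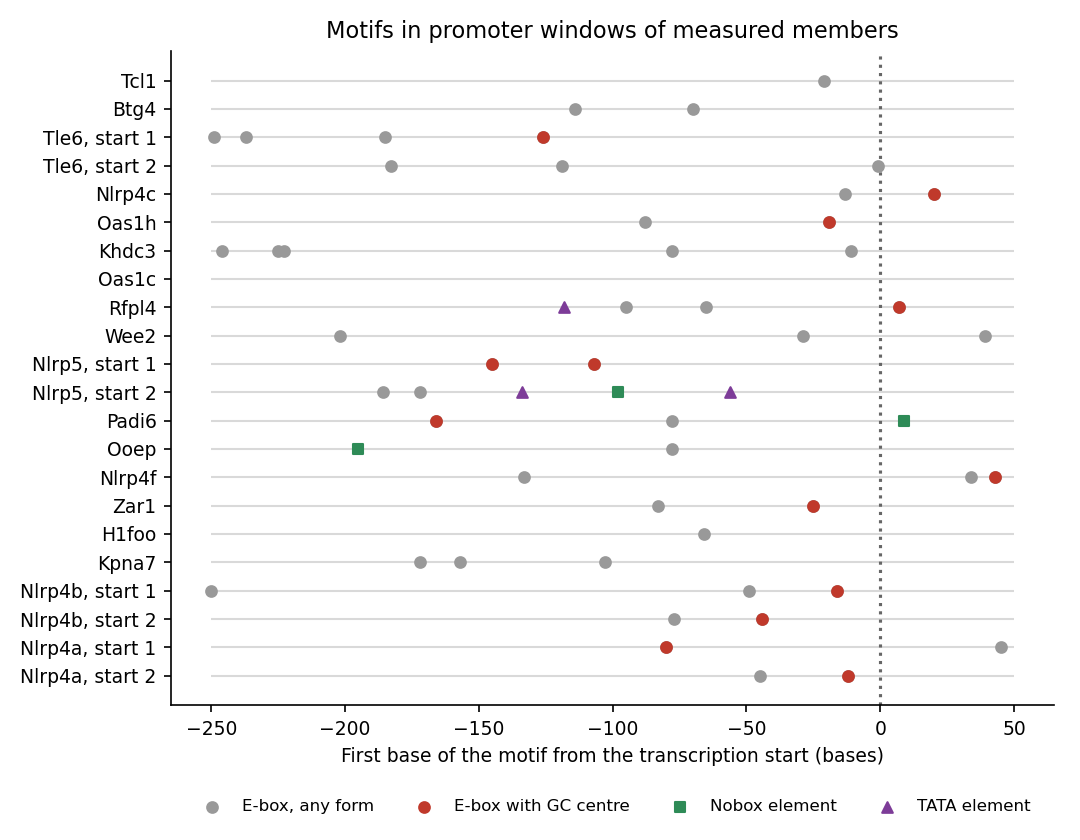
Each row is a promoter window of a measured member, ordered from the lowest log2 ratio at the top (Tcl1) to the highest at the bottom (Nlrp4a), and the horizontal axis gives the first base of each motif relative to the transcription start, in bases. Grey circles are E-boxes of any form, red circles those with the bases GC at the centre, squares Nobox elements and triangles TATA elements; red circles occur from the upper to the lowest rows, and Nobox elements in the windows of Nlrp5, Padi6 and Ooep.

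Other genes of the oocyte were lower in the mutant pool as well, and several lists had medians further below 0 than the maternal-effect genes. The median log2 ratio was -0.76 for germ cell identity genes, with 12 of 12 measured genes under 0 and 7 at least 1.5-fold lower, and -0.72 for oocyte transcription factors, with 8 of 8 under 0 and 5 at least 1.5-fold lower. It was -0.55 for meiotic prophase genes (12 of 12 under 0), -0.42 for genes of oocyte RNA storage (7 of 9) and -0.40 for zona pellucida and oocyte secreted factors (5 of 5). Dazl was counted both in the germ cell identity list and in the RNA storage list. Whether somatic cells contribute to the signals of these lists was not tested. With 1 array per pool the differences between these medians could not be tested. Of the germ cell identity genes Dnd1 was nearly equal between the pools, at 120.1 in mutant ovaries and 120.4 in control ovaries. The summed signal of the germ cell identity genes was 51132.5 in mutant ovaries and 70276.1 in control ovaries, of which the bright probe sets of Dppa3 and Gtsf1 gave 71.9% in mutant ovaries and 65.2% in control ovaries. Such sums follow the brightest probe sets of a list. The part of oocyte number in the members' ratios was not tested.

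The transcription factors of the early oocyte are set out here because the windows above were searched for E-boxes and for the Nobox element. No separate element was searched for Lhx8. Sohlh1 read 365.9 in mutant ovaries and 876.6 in control ovaries, 2.40-fold lower. Figla read 3888.5 in mutant ovaries and 7590.6 in control ovaries, 51.2% of the control signal. Nobox read 1876.7 in mutant ovaries and 2987.1 in control ovaries (62.8%), and Lhx8 read 4057.4 in mutant ovaries and 5309.5 in control ovaries (76.4%). All 4 were lower in the mutant, and the ratio of Lhx8 (-0.39) was close to the members' median.

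Among the other oocyte lists, the ratios of zona and secreted factors covered the narrowest range. Zp1, a structural glycoprotein of the zona pellucida, read 1024.2 in mutant ovaries and 1521.6 in control ovaries (67.3%). Zp3, another zona protein, read 3211.1 in mutant ovaries and 4340.8 in control ovaries (74.0%). In the germ cell lists Tdrd1, a Tudor-domain protein of the piRNA pathway, read 18.4 in mutant ovaries, under the minimum, and 131.3 in control ovaries (at least 1.63-fold lower). Mov10l1, a piRNA-pathway helicase, had 42.4% of its control signal in the mutant, Uchl1 had 45.6% and the meiotic cohesin subunit Smc1b 44.1%. Cpeb1, which controls translation of stored messages, read 1424.5 in mutant ovaries and 2843.7 in control ovaries (50.1%). Pabpc1l, an oocyte poly(A)-binding protein, differed in the other direction within the RNA storage list, at 123.9 in mutant ovaries and 65.6 in control ovaries, where the control signal lay under the minimum (at least 1.54-fold higher). These genes of the germ cell and RNA storage lists were named for having among the largest absolute log2 ratios of their lists.

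**Figure D4:**
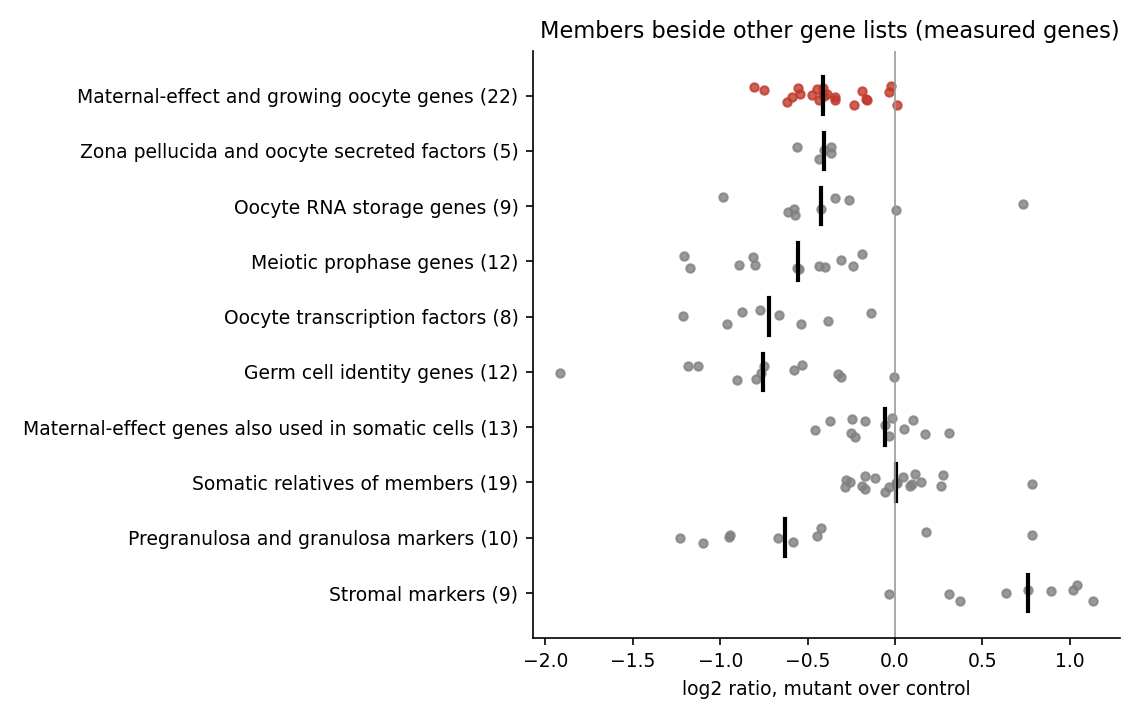
Each point is a measured gene's log2 ratio of mutant to control, with the number of measured genes of each list in brackets and a black bar at the median (vertical scatter only separates the points). The maternal-effect genes (red, median -0.41) lie beside the zona and RNA storage lists, while the medians of the oocyte transcription factors (-0.72) and germ cell identity genes (-0.76) are further below 0 and that of stromal markers (0.76) is above it.

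Relatives of the members that somatic cells use were centred on 0. The median log2 ratio was 0.01 over 19 measured of 25 genes, such as other Tle, Kpna, Btg and Bcl2 family genes, with 9 under 0, 0 at least 1.5-fold lower and 1 that much higher. That gene, Tob1, an antiproliferative relative of Btg4, read 6598 in mutant ovaries and 3816.9 in control ovaries. Kpna2, an importin alpha of dividing cells, read 12046.2 in mutant ovaries and 14712.1 in control ovaries (81.9%). For maternal-effect genes that somatic cells also use, the median was -0.06 over 13 measured of 15, and 0 of them passed 1.5-fold in either direction. The lowest of these, Uhrf1, a partner of the maintenance methyltransferase, read 5432.3 in mutant ovaries and 7458.6 in control ovaries (72.8%).

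Somatic lists of the ovary differed between the pools in both directions, and their part in the members' ratios was not tested. Steroidogenic markers differed most, with a median log2 ratio of 3.17 and 6 of 6 measured genes at least 2-fold higher, against 3.21% of all measured genes. The endothelial, leukocyte and surface epithelium markers had medians of 0.48, 0.40 and -0.33. Stromal markers had a median log2 ratio of 0.76, with 6 of 9 at least 1.5-fold higher, and a summed signal of 105434.7 in mutant ovaries against 75558.1 in control ovaries, of which Col3a1 and Col1a2 gave 60.6% in mutant ovaries and 66.6% in control ovaries. Pregranulosa and granulosa markers had a median of -0.63, with 8 of 10 under 0, 6 at least 1.5-fold lower and 1 that much higher, and a summed signal of 25400.8 in mutant ovaries against 30893.8 in control ovaries, of which Kitl and Foxl2 gave 74.0% in mutant ovaries and 68.1% in control ovaries. The higher gene, named after its values were seen, was Bmp2, a signalling ligand, at 599.5 in mutant ovaries and 339.1 in control ovaries. Foxl2, the factor that marks the granulosa lineage, read 4181.9 in mutant ovaries and 8096.6 in control ovaries. Zp3 and Foxl2, which mark the oocytes and granulosa lineage of an ovary, were thus far above the signal minimum in both pools.

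The arrays differed in some technical measures. The trimmed mean signal was 500 on both arrays, so both share a common scale, and 49.8% of probe sets reached the signal minimum in mutant ovaries and 50.3% in control ovaries. The signal ratio of 3′ to 5′ probe sets was 10.5 in mutant ovaries and 8.48 in control ovaries for Actb and 4.98 in mutant ovaries and 3.28 in control ovaries for Gapdh. Both arrays, not the mutant array alone, thus had far more signal at the 3′ end of these genes. Spiked hybridization controls were brighter on the mutant array for 17 of 18 probe sets (median log2 ratio 0.23). The part of RNA integrity in the members' ratios was not tested. With the ratios centred on these spiked controls, 13 members rather than 4 were at least 1.5-fold lower, where 18.8% of all measured genes were.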

How the data were processed

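Affymetrix probe-set signals were measured in 2 pools of ovary RNA, 1 mutant and 1 control, each from 8 mice. The authors deposited signal intensities on a linear scale, and the submitters' processing notes name GCOS. Its version and settings are not stated in the labels. Signals were used as deposited. Gene names came from the platform annotation (34958 probe sets with 1 symbol, 932 with several, 9211 not listed), and only probe sets with 1 symbol were named. Probe sets were taken as measured where either signal was 80.7 or more, the median of all values. Where a gene had several of these, the one of highest mean signal was used, and log2 ratios used a pseudocount of 22.2. There was no test. All measured members were named, with up to 3 genes of each comparison list by absolute log2 ratio and the factors Figla, Nobox, Sohlh1 and Lhx8. Not every gene of that rank was named. Outside this rule, Dppa3, Gtsf1, Kitl, Col3a1 and Col1a2 were named as the brightest of their lists. Dnd1 was named as nearly equal between the pools, and Bmp2 as the higher gene of its list. The members, the 15 comparison lists and 11 of the alternative settings were chosen with earlier results of these data known, and 2 further settings after the values were seen. The list not described in the results, that of inflammasome genes, had a median log2 ratio of -0.25 over 3 measured genes. Neighbours were read from the RefSeq gene table for GRCm38.p6, and the array annotation names no build. Windows were aligned with Biopython 1.88. The gene-level calculation was tested on simulated data. With 1 array per pool, precision is limited by the number of arrays.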

Additional observations from a re-analysis of the deposited data

How the results depend on the processing

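The members' counts, medians and ratios were recomputed under 13 alternative settings, changing 1 choice at a time; the comparison lists and the promoter counts were not. The median log2 ratio of the members lay between -0.64 and -0.37 over these settings. The number of members at least 1.5-fold lower lay between 3 and 4 in all settings but 1. Over these settings the share of all measured genes that low lay between 4.96% (pseudocount at the median) and 12.1% (dimmest measured probe set). The exception was centring the ratios on the spiked hybridization controls, a setting chosen after the data were seen. There 13 members were at least 1.5-fold lower, where 18.8% of all measured genes were. In it 1 member was at least 2-fold lower, and the share of all genes at that size was not computed. That setting moves every ratio down by the same 0.23. No member was at least 1.5-fold higher under any of them. Quantile normalization left 19 of 22 members under 0, with Kpna7, Nlrp4a and Nlrp4b just above it. With the dimmer probe set of Wee2 its log2 ratio was -0.07. When the minimum was lowered to the 25th percentile, 27 members were measured and 22 of them were under 0, and the median of the Nlrp genes outside the complex turned to 0.01. Of 372 recomputed values of single members and subgroups, 1 moved by more than the probe-set SD, the median of the oogenesin and Tcl1 group with the dim Oog genes included (-0.40), and no gene past 1.5-fold changed sign. Signal over background limits the 6 members under the minimum. No paired analysis was possible because each group holds 1 array.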
